A study of Mus musculus with 6 samples.

Results

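The aquaporins measured here are the 9 genes Aqp1, Aqp2, Aqp3, Aqp4, Aqp5, Aqp7, Aqp8, Aqp9 and Aqp11, taken by their symbol among the gene probes of a mouse expression microarray. They are 9 of the 19507 genes with a current symbol on the array and are represented by 14 of its 41174 probes. Each of the 14 is a 60-base oligonucleotide printed as 1 spot: Aqp9 and Aqp4 have 3 probes each, Aqp7 has 2 and the other members have 1. The study compared 2 lines of S49, a mouse T lymphoma line: the parental line S49 Neo (Neo below), and MR 4-25, which the labels call the Mannitol Recovered line. Mannitol is a sugar alcohol that crosses cell membranes poorly and is used to raise the osmolarity of a medium, and the series concerns gene expression after hyperosmotic exposure. Both lines were grown in RPMI-1640 with heat-inactivated fetal calf serum and received no treatment, so the arrays compare the lines at rest and not during exposure to mannitol. Each line is represented by 3 arrays of Cy3-labelled RNA, which are called replicates without a statement that they came from separate cultures, and MR 4-25 stands for itself alone among mannitol-recovered lines. The p-values therefore measure the spread between these arrays, which may be technical.

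Aquaporins are membrane channels that assemble as tetramers, with a water pore through each subunit. The water-selective members (Aqp1, Aqp2, Aqp4, Aqp5, with Aqp8 usually set beside them) let water follow an osmotic gradient. The aquaglyceroporins (Aqp3, Aqp7 and Aqp9) also pass glycerol and other small solutes, and Aqp3 and Aqp8 are known to pass hydrogen peroxide. Aqp11 is an unorthodox member that lies largely in the endoplasmic reticulum and differs from the others in the conserved motif that lines the pore; mice without it develop polycystic kidneys. In T cells, Aqp3 is known for its part in migration and Aqp9 for glycerol uptake in memory cells.

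The probes that the results turn on are shown 5′ to 3′ as printed in the array files, since each value is the signal of that oligonucleotide and not of the whole transcript. The Aqp11 probe lies on the minus strand of chromosome 7, at chr7:93757914-93757973 in the array's annotation on mouse build mm7. The Aqp2 probe and the Aqp9 probe A_51_P168133 have genomic spans of 977 and 10465 bases for 60 bases of sequence. The Aqp2 span is chr15:99567392-99568368 and the Aqp9 span is chr9:71146729-71157193. The first 30 bases are given for Aqp11, Aqp8 and Aqp9 A_52_P136092.
Aqp11 A_51_P447248, bases 1 to 30: cttcagctttctctgtggaaggtgtcttaa
Aqp2 A_51_P492298: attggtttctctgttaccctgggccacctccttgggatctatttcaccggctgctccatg
Aqp8 A_51_P183261, bases 1 to 30: agaaggtctttcaggagcccaaagatcttg
Aqp9 A_51_P168133: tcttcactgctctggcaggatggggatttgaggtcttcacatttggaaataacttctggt
Aqp9 A_52_P136092, bases 1 to 30: aaactaaaagctagtggactctacctggtg
Aqp9 A_52_P80440: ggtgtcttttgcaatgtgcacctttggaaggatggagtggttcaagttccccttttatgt
The 2 Aqp7 probes are shown because they overlap and yet gave different patterns. They share 38 bases with a single mismatch, G40A from A_52_P403405 to A_51_P378063, with positions counted from 1 at the 5′ end of A_52_P403405. The mismatch is in capitals in the 30 bases of the overlap printed here.
Aqp7 A_52_P403405, bases 23 to 52: aagtagagcttctctttGaccacaaccgta
Aqp7 A_51_P378063, bases 1 to 30: aagtagagcttctctttAaccacaaccgta
Between probes of different aquaporins the longest shared run was 9 bases.

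The values are processed Cy3 signals in the scanner's arbitrary units, and differences are in log2 after each array's 75th percentile was subtracted. The 6 arrays lay on 2 slides: slide 1 held replicates 1 and 2 of both lines, and slide 2 held replicate 3 of both, so the slide and the replicate number 3 cannot be told apart. The array MR 4-25 3 was the dimmest, with a 75th percentile of 521 against 844 to 988 on the other arrays, and 61.4% of its probes were well above background against 70.0% to 76.3%. Across the probes past the filter, MR 4-25 3 correlated at 0.933 with Neo 3 and at 0.892 and 0.906 with the other MR 4-25 arrays. All 12 T lineage markers were well above background on all 6 arrays. Of the markers of other cell types, the epithelial marker Epcam was well above background on no array. On all 6 arrays, 5 of 7 erythroid, 7 of 9 myeloid, 3 of 6 B lineage, 2 of 6 epithelial and 3 of 5 adipose markers were so.

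Few aquaporin probes gave a steady signal in these T lymphoma cells. Of the 14 probes, 5 were well above background on all 6 arrays, where 54.3% of all probes were, and the Aqp4 probe A_51_P419319 was so on none, as were 15.8% of all probes. A filter of well above background on at least 3 of the 6 arrays passed 10 of the 14 probes, and 75.2% of all probes. These 10 represent 8 genes, since the only Aqp1 probe did not pass. The 4 probes left out were those of Aqp1, both Aqp4 probes other than A_52_P25710, and Aqp7 A_52_P403405. No aquaporin spot was saturated or marked as an outlier. In place of a signal too close to background, the scanner software gives a floor value, used for 10% to 23.7% of gene spots per array.

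**Figure D1:**
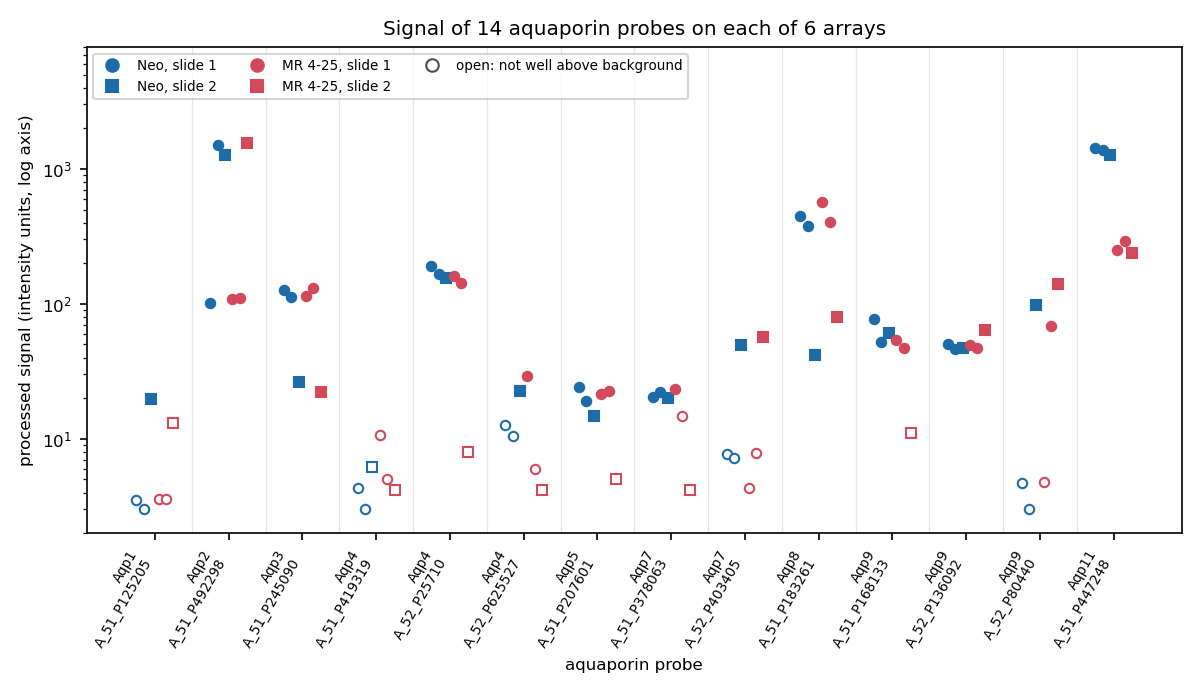
Processed Cy3 signal (arbitrary units, log axis) of each of the 14 aquaporin probes on the 3 Neo and 3 MR 4-25 arrays, with filled points well above background and open points not. Only the Aqp11 probe has all MR 4-25 points (238 to 293) below all Neo points (1275 to 1416) without overlap; Aqp2, Aqp8 and Aqp9 A_52_P80440 spread widely within both lines.

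Aqp11 fell in MR 4-25 and was the only aquaporin to pass the test. Its signals were 1416, 1373 and 1275 on Neo replicates 1, 2 and 3, and 252, 293 and 238 on MR 4-25 replicates 1, 2 and 3. Every MR 4-25 array was lower than every Neo array, and all 6 signals were well above background. The scaled log2 level was 0.57 ± 0.12 in Neo and -1.52 ± 0.34 in MR 4-25 (SD, n = 3 each). The log2 difference was -2.09 (SE 0.22, 95% interval -2.64 to -1.53), a signal 4.24-fold lower, with an adjusted p of 0.0246 over the 30975 probes tested with limma. The difference was -2.33 among the slide 1 arrays and -1.61 between the 2 arrays of slide 2. Of all probes tested, 98.7% had a smaller absolute difference between the lines, and 36.5% had a smaller SD within the lines.

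The aquaporin count is therefore 1 of the 10 tested, where 1.29% of all probes (401) passed. It was 1 lower and 0 higher in MR 4-25, where 0.6% of all probes (186) passed as lower and 0.694% (215) as higher. None of the other 9 reached an unadjusted p under 0.05 in limma. Of all genes, taken by their brightest probe, 14.2% did. With normexp background correction, 25 probes in all passed as lower and 65 as higher. The direction of Aqp11 was the same under all 17 settings tried, from -2.33 to -1.71, but most of them could not change it. The filters, the brightest probe, the value table, the blocks and the intensity trend left the difference at -2.09 by construction. Leaving out an array cannot reverse lines that do not overlap. With the slide as a block, Aqp11 kept its call (adjusted p = 0.0284 in limma). The call was lost when replicate numbers entered the fit as a block (adjusted p = 0.13, with 1 probe of 30975 passing) or with normexp background correction (-1.71, adjusted p = 0.199), and leaving out any array but MR 4-25 3 gave an adjusted p of 0.115 (without MR 4-25 1) to 0.166 (without Neo 2). Without MR 4-25 3, the difference was -2.28 with an adjusted p of 0.019.

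**Figure D2:**
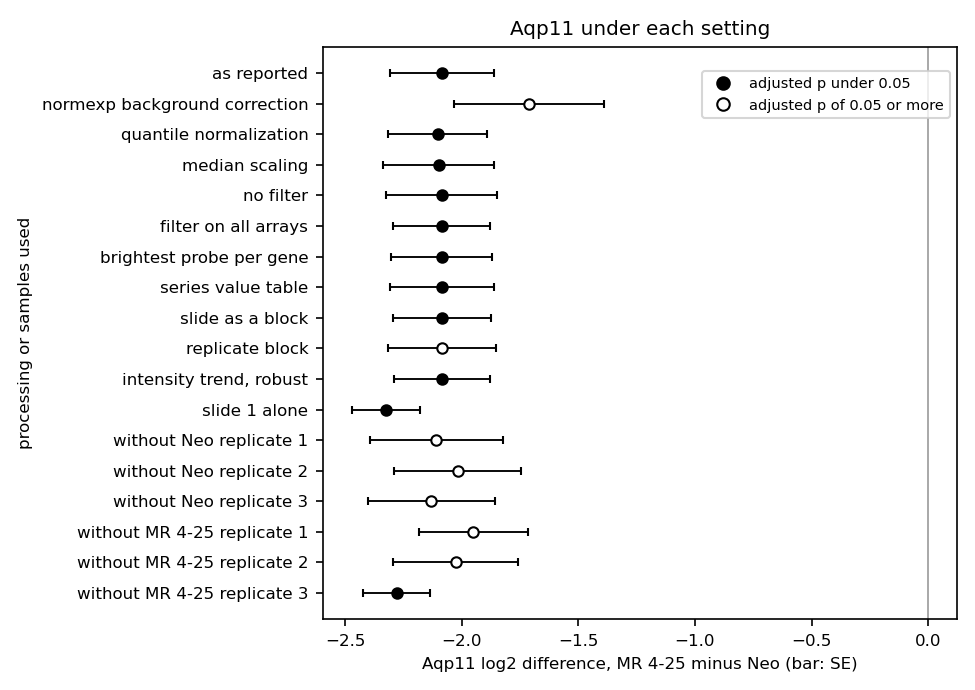
Log2 difference of Aqp11 (MR 4-25 minus Neo) under each processing setting, with filled points where the adjusted p was under 0.05 and open points elsewhere. All points lie between -2.33 and -1.71. The fit as reported is filled, and so are 10 of the 17 other settings that give a test.

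The genes on either side of Aqp11 did not pass the test. Clns1a, which encodes the chloride current regulator pICln, known from work on cell volume and from the assembly of spliceosomal particles, gave 13790, 10130 and 12300 on the Neo arrays and 7452, 8401 and 5279 on the MR 4-25 arrays. All 3 MR 4-25 signals were the lower ones, with a log2 difference of -0.50 (SE 0.15, adjusted p = 0.24 in limma). Rsf1, a chromatin remodelling factor, had a difference of -0.01 (SE 0.16) and Pak1, a kinase of the cytoskeleton, of 0.36 (SE 0.48), with adjusted p-values of 0.979 and 0.792 in limma. The Gdpd4 probe was not above background on enough arrays. Over the genes beside all 9 aquaporins, 27 of 28 were on the array and 22 were tested; in limma 0 passed in either direction and 4 had an unadjusted p under 0.05, with a median difference of -0.22 against 0.02 over all 16744 genes, of which 14.2% had an unadjusted p under 0.05.

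The probes most like Aqp11 were found by the root mean square distance of their 6 centred log2 values over the 6 arrays. The nearest was Oosp1 A_52_P195135, at 0.11, a probe for an oocyte-secreted protein. It read 727, 686 and 701 on the Neo arrays and 121, 124 and 116 on the MR 4-25 arrays. Next was Paqr5, a membrane progestin receptor, at 0.12, with signals of 92.0, 84.5 and 91.5 on the Neo arrays and 14.2, 17.0 and 15.7 on the MR 4-25 arrays. A second Oosp1 probe, A_51_P205042, followed at 0.15. All 3 were lower on every MR 4-25 array, with log2 differences of -2.26, -2.22 and -1.90. These probes were selected for their likeness to Aqp11, so their difference between the lines describes the selection.

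**Figure D3:**
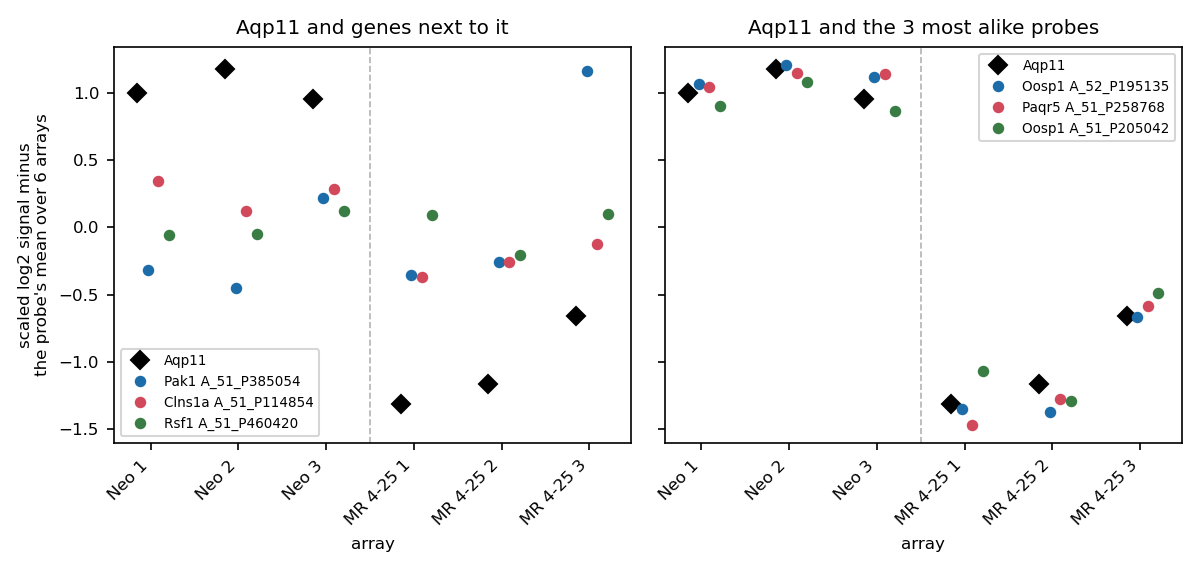
Scaled log2 signal of Aqp11 on the 6 arrays, minus the probe's own mean, beside 3 genes next to it on chromosome 7 (left) and the 3 probes with the most similar values (right). Aqp11 differs by -2.09 between the lines and the neighbours Pak1, Clns1a and Rsf1 by 0.36, -0.50 and -0.01; both Oosp1 probes and Paqr5 run beside Aqp11, as they were chosen to.

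Among the water-selective channels, no line difference passed the test, and several probes varied more between arrays of a line than between the lines. Aqp2 is the vasopressin-regulated water channel of the kidney collecting duct. It gave 101, 1508 and 1257 on Neo replicates 1, 2 and 3 and 109, 111 and 1564 on MR 4-25 replicates 1, 2 and 3. Neo 2, Neo 3 and MR 4-25 3 were high and the other 3 arrays were low, so each line held both levels. All 6 signals were well above background. The difference of -0.81 (SE 1.75, 95% interval -5.20 to 3.58) had an adjusted p of 0.883 in limma, and its sign differed between the slides, at -1.79 on slide 1 and 1.13 on slide 2. By a rule added after the values were seen, the probes most like Aqp2 were those of Cyp2c66, Nr3c2 and Zbbx. Cyp2c66, the nearest, gave 20.3, 220 and 186 on the Neo arrays and 18.6, 17.5 and 229 on the MR 4-25 arrays. Nr3c2, the mineralocorticoid receptor, gave 45.6, 513 and 496 on the Neo arrays and 36.8, 50.5 and 603 on the MR 4-25 arrays. These probes were selected for their likeness to Aqp2, so the same 3 high arrays describe the selection.

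Aqp8, a channel for water, ammonia and hydrogen peroxide, read 448, 375 and 42.0 on the Neo arrays and 568, 402 and 80.6 on the MR 4-25 arrays. Replicate 3 of each line was the low one, and the lines overlapped. The log2 difference was 0.76 (SE 1.09, 95% interval -1.99 to 3.50, adjusted p = 0.815 in limma). The probe nearest to that of Aqp8 by the same added rule was that of Mug2. It gave 122, 98.9 and 11.1 on the Neo arrays and 129, 102 and 22.1 on the MR 4-25 arrays. Its low values on replicate 3 of both lines describe the selection, since it was chosen for its likeness to Aqp8.

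Aqp5, the channel of salivary and lacrimal glands, was dim, at 24.1, 19.1 and 14.7 on the Neo arrays and 21.4, 22.7 and 5.02 on the MR 4-25 arrays. The lines overlapped and MR 4-25 3 was the lowest array, with a signal not well above background. The difference was -0.20 (SE 0.44, 95% interval -1.30 to 0.91, adjusted p = 0.889 in limma). The 3 probes of Aqp4, the channel of astrocytes, gave 3 different pictures. A_52_P25710 read 190, 166 and 155 on the Neo arrays and 161, 144 and 7.98 on the MR 4-25 arrays. The first 5 of these values lay together and MR 4-25 3 alone was low, with a signal not well above background. The size of the difference depends on that value. The difference was -1.28 (SE 1.01, 95% interval -3.82 to 1.26, adjusted p = 0.65 in limma), and it was -0.19 on slide 1 and -3.46 on slide 2. A_52_P625527 was well above background only on Neo 3 and MR 4-25 1, at 22.5 and 29.4, and A_51_P419319 never exceeded 10.6. Aqp1, the water channel of red cells and endothelium, was well above background only on Neo 3, at 19.6, and read 3.04 to 13.2 on the other 5 arrays. On Neo 1, Neo 2 and MR 4-25 2 the Aqp1 value was a floor value and not a measured signal. The shares of gene spots at the floor were 14.3%, 11.1% and 15.8% on those arrays.

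The aquaglyceroporins gave no line difference past the test. Aqp3, a channel for water, glycerol and hydrogen peroxide, read 126, 113 and 26.4 on the Neo arrays and 115, 131 and 22.4 on the MR 4-25 arrays. Replicate 3 of each line was low and the remaining 4 lay close together, with no separation of the lines. The difference was 0.24 (SE 0.80, 95% interval -1.78 to 2.25, adjusted p = 0.925 in limma). Aqp7 is the glycerol channel of adipocytes. Its probe A_51_P378063 gave 20.3, 22.3 and 20.0 on the Neo arrays, all well above background, and 23.5, 14.8 and 4.15 on the MR 4-25 arrays, of which only the first was. The lines overlapped, with the highest value and the lowest both in MR 4-25. The lowest, on MR 4-25 3, was a floor value and not a measured signal. The difference was -0.59 (SE 0.47, 95% interval -1.76 to 0.58, adjusted p = 0.651 in limma). The overlapping probe A_52_P403405 gave 7.77, 7.16 and 49.9 on the Neo arrays and 4.31, 7.83 and 57.0 on the MR 4-25 arrays. It was well above background only on the 2 arrays of slide 2, where A_51_P378063 read 20.0 and 4.15.

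The 3 probes of Aqp9, the glycerol and small-solute channel of liver and leukocytes, did not vary together. A_51_P168133 read 77.2, 51.8 and 60.4 on the Neo arrays and 54.4, 47.4 and 11.0 on the MR 4-25 arrays. MR 4-25 3 was the lowest and was not well above background, and MR 4-25 1 was above Neo 2. A_52_P136092 read 50.4, 46.6 and 47.4 on the Neo arrays and 49.2, 47.1 and 64.2 on the MR 4-25 arrays. Here MR 4-25 3 was the highest and the other 5 arrays differed little. A_52_P80440 read 4.72, 3.04 and 98.0 on the Neo arrays and 4.75, 68.5 and 141 on the MR 4-25 arrays. It was high on both slide 2 arrays and on MR 4-25 2. On the rest it was low and not well above background, with a floor value on Neo 2. The log2 differences were -0.73 (SE 0.44, 95% interval -1.85 to 0.38), 0.43 (SE 0.37, -0.49 to 1.36) and 1.97 (SE 1.97, -2.98 to 6.92), with adjusted p-values of 0.548, 0.668 and 0.712 in limma. Probes of this 1 gene thus had differences of both signs, and none passed.

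**Figure D4:**
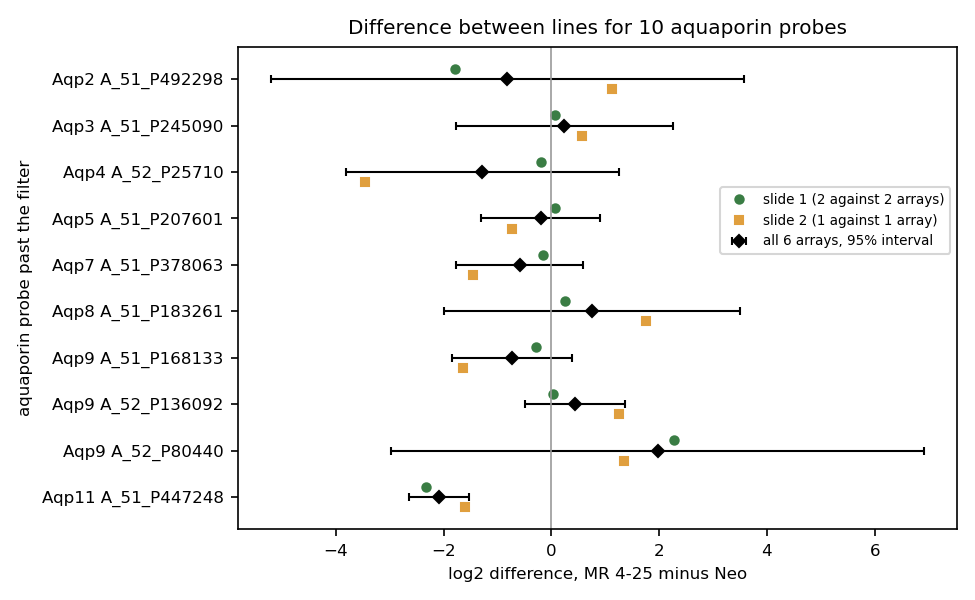
Log2 difference (MR 4-25 minus Neo) of the 10 aquaporin probes past the filter, with 95% intervals over all 6 arrays and the differences within slide 1 and slide 2. The Aqp11 interval (-2.64 to -1.53) lies below 0, the other 9 intervals cross it, and the intervals of Aqp2 and Aqp9 A_52_P80440 span the most.

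As a group, the 10 probes past the filter had a median line difference of -0.39 against -0.02 over all 30975 probes, with 6 lower and 4 higher in MR 4-25 at any size. Their median SD within the lines was 0.88 against 0.36 over all probes. Aqp11 had the smallest SD of the 10 at 0.26, and the largest were 2.48 for Aqp2 and 2.79 for Aqp9 A_52_P80440. The lines did not overlap for 1 of the 10, Aqp11, where 25.2% of all probes had lines that did not overlap. It was lower in MR 4-25, as were 14.4% of all probes without overlap, and the 10.8% that were higher without overlap had no aquaporin among them. On 9 of the 10 the lowest or the highest value lay on a slide 2 array, and 82.4% of all probes shared that feature. MR 4-25 3 was the lowest of the 6 arrays for 4 probes (33.1% of all probes) and the highest for 3 (27.1%). Neo 3 was the lowest for 2 (22.5%) and the highest for 0 (13.1%).

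Slide 2 was also compared with slide 1 within lines, a comparison added after the data were seen. Aqp3 and Aqp8 passed this test, 2 of the 10 probes, where 13.6% of all probes passed. Both were lower on slide 2, as were 9.53% of all probes, and 0 of the 10 passed as higher, against 4.11%. In values alone, both slide 2 arrays lay below all slide 1 arrays for 3 of the 10 (20.3% of all probes) and above them for 1 (9.99%). Aqp3 was lower on slide 2 by a log2 difference of -1.93 (SE 0.18, adjusted p = 0.00748 in limma) and Aqp8 by -2.54 (SE 0.40, adjusted p = 0.0203 in limma). With normexp background correction neither passed, and that of Aqp3 became 0.09. Without the filter, Aqp1 and Aqp7 A_52_P403405 also passed, both higher on slide 2, by 2.62 and 3.40. The share of all probes passing without the filter was not counted. Neither probe was well above background on any slide 1 array, and Aqp1 had a floor value on 3 of those arrays. The sizes of these slide differences therefore depend on values at or near background. Aqp11 differed by 0.22 between the slides (SE 0.22, 95% interval -0.36 to 0.81, adjusted p = 0.594 in limma). Aqp2 and Aqp9 A_52_P80440 had slide differences of 3.14 (SE 1.34) and 4.22 (SE 1.10) that did not pass, with adjusted p-values of 0.229 and 0.0795 in limma.

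**Figure D5:**
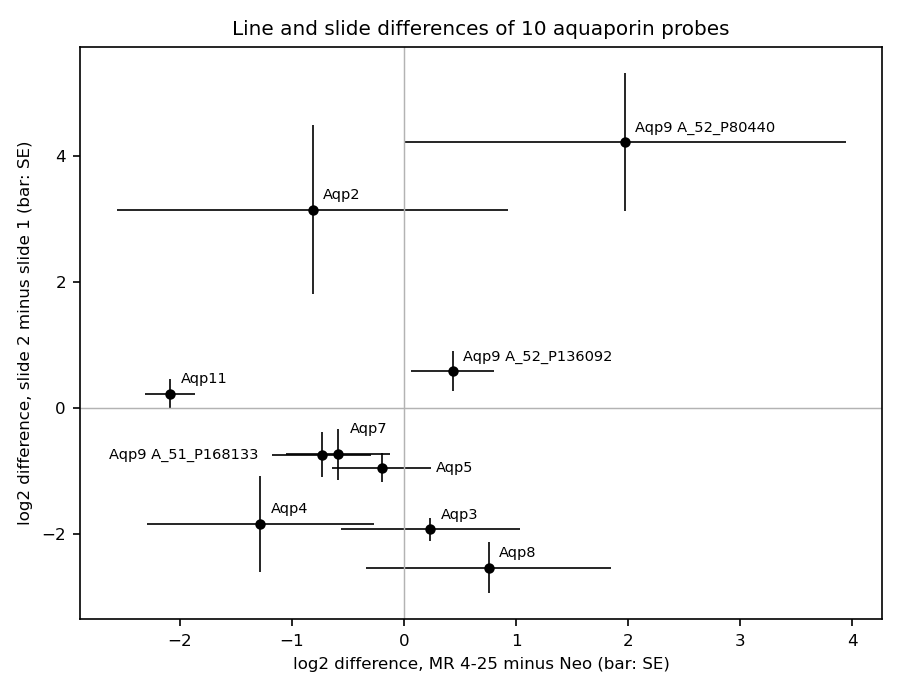
Line difference (MR 4-25 minus Neo) against slide difference (slide 2 minus slide 1) of the 10 aquaporin probes past the filter, in log2, with bars for the SE. Aqp11 lies far to the left at a slide difference of 0.22, and Aqp3 and Aqp8 lie low, at -1.93 and -2.54, with line differences of 0.24 and 0.76.

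Of the 3 family members that the selection left out, 2 were tested and neither passed for the line. Aqp6, an anion-permeable channel of intracellular vesicles in the kidney, read 132, 114 and 96.7 on the Neo arrays and 113, 133 and 4.15 on the MR 4-25 arrays. It was low on MR 4-25 3 alone, where the value was a floor value and not a measured signal. The size of its difference, -1.22 (SE 1.19, adjusted p = 0.707 in limma), depends on that floor. Mip, the lens fibre aquaporin, read 31.7, 28.4 and 13.0 on the Neo arrays and 34.7, 42.1 and 6.77 on the MR 4-25 arrays. Mip was low and not well above background on replicate 3 of both lines. It had a line difference of 0.21 (SE 0.62, adjusted p = 0.913 in limma) and a slide difference of -1.47 (adjusted p = 0.0127 in limma). Aqp12, known from pancreatic acinar cells, did not pass the filter.

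On the array's annotation the probes of Aqp2, Aqp5 and Aqp6 lie in a row on chromosome 15, with gaps of 11.6 kb between Aqp2 and Aqp5 and 10.2 kb between Aqp5 and Aqp6. The probe of Aqp3 lies 58.7 kb from those of Aqp7 on chromosome 4. On MR 4-25 3 Aqp2 was at its highest, as were 27.1% of all probes. Aqp5 and Aqp6 were both at their lowest there, as were 33.1%. On that array Aqp5 was not well above background and Aqp6 was a floor value. Aqp3 was low on both slide 2 arrays. Of the Aqp7 probes, A_51_P378063 was lowest on MR 4-25 3, with a slide difference of -0.74 (adjusted p = 0.317 in limma), and A_52_P403405, which did not pass the filter, was high on both slide 2 arrays.

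The genes that handle the solutes of these channels, or that place them in membranes, did not pass the test. Among 14 tested of 15 genes of glycerol and urea handling, 0 rose and 0 fell in limma, 1 had an unadjusted p under 0.05 and the median difference was 0.02. That gene was Gpd1, the cytosolic glycerol-3-phosphate dehydrogenase, with 305, 244 and 274 on the Neo arrays and 128, 117 and 40.5 on the MR 4-25 arrays. All 3 MR 4-25 arrays were lower, by a log2 difference of -1.39 (SE 0.27) with an adjusted p of 0.11 in limma. Among 20 tested of 21 genes of hydrogen peroxide handling, 0 rose and 0 fell in limma, 3 had an unadjusted p under 0.05 and the median was 0.19. The nearest to the threshold was Cat, the peroxisomal enzyme that breaks down hydrogen peroxide, with 5364, 4319 and 5447 on the Neo arrays and 11690, 9389 and 6964 on the MR 4-25 arrays. Its MR 4-25 signals were all higher, with a difference of 1.16 (SE 0.18) and an adjusted p of 0.0614 in limma. With a filter on all 6 arrays, the brightest probe of each gene or an intensity trend, Cat passed, at adjusted p-values of 0.0251, 0.0454 and 0.0134. Among 21 tested of 23 genes of aquaporin trafficking and anchoring, 0 rose and 0 fell in limma and 3 had an unadjusted p under 0.05. Their median was 0.08, and the range ran from -0.66 for Vta1, which is known to act in sorting to multivesicular bodies, to 0.45 for Vamp3, a vesicle fusion protein. Over all 16744 genes taken by their brightest probe, 0.83% passed as higher and 0.675% as lower, and 14.2% had an unadjusted p under 0.05, so the unadjusted counts of these lists are near the background. Gpd1, Cat, Vta1 and Vamp3 are singled out here after their values were seen.

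The adipose markers, which bear on Aqp7 as an adipocyte channel, were led by Fabp4, a fatty acid carrier that macrophages also express. Fabp4 rose, from 50280, 47650 and 31580 on the Neo arrays to 208000, 229400 and 99030 on the MR 4-25 arrays. All 3 MR 4-25 arrays were above all Neo arrays, with a difference of 2.28 (SE 0.25, adjusted p = 0.0263 in limma). The summed signal of the 5 adipose markers was 31760 to 50420 in Neo and 99210 to 229500 in MR 4-25, and nearly all of it was Fabp4. The other 3 tested did not pass, with differences of -0.44 for Cidec, -0.65 for Lep and 0.27 for Plin1, and the median of the list was -0.08. None of the 8 myeloid markers tested passed in limma, and their median was 0.48. An unadjusted p under 0.05 was found for 3, and for 14.2% of all genes. Those 3 were Lyz2, Fcgr3 and Cd68, with differences of 1.06, 0.93 and 0.75 and adjusted p-values of 0.0522, 0.24 and 0.261 in limma. Cd14 and Itgam went the other way, at -1.03 and -0.43, and Adgre1, Csf1r and Mpo were at 0.25, 0.27 and 0.69. The summed myeloid signal was 2080 to 2609 in Neo and 2177 to 3447 in MR 4-25. These sums are of unscaled signals, whereas the differences and medians are of scaled ones. The summed erythroid markers, which bear on Aqp1, ran from 880 to 1482 in Neo and from 1053 to 1569 in MR 4-25, with a median scaled difference of 0.25. The epithelial markers, which bear on Aqp2, Aqp3, Aqp5 and Aqp8, ran from 885 to 1189 in Neo and from 626 to 821 in MR 4-25. Their scaled differences were -0.59 for Cldn4, 0.10 for Krt18, 0.85 for Krt19 and 1.33 for Krt8, and none passed. Of these, Cldn4 was the brightest on every array. The 12 T lineage markers ran from 281900 to 333800 in Neo and from 150300 (on the dim array MR 4-25 3) to 276200 in MR 4-25. Their median scaled difference was -0.13, with 0 past the test in limma. An unadjusted p under 0.05 was reached by 3 of the 12, and by 14.2% of all genes. The part of these markers in the aquaporin values was not tested. In RNA from a whole culture, fewer cells with a transcript and less transcript per cell cannot be told apart.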

How the data were processed

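The authors deposited Cy3 intensity values, corrected for background, in 6 scanner files. Per the file headers these came from Agilent Feature Extraction 9.5.3.1; the submitters' processing notes give 9.5. A deposited value table was identical to the processed signal, unlogged and uncentred, with array medians of 50.2 (MR 4-25 3) to 90.2 (Neo 2). Of 43379 gene spots an array, outlier spots were masked (34 probes lost) and spots of a probe averaged. Log2 signals were scaled to each array's 75th percentile. Probes well above background on at least 3 arrays (30975) were fitted with limma 3.58.1 under R 4.3.3 (lmFit, eBayes), MR 4-25 against Neo, and p-values were adjusted by the Benjamini-Hochberg method, with a threshold of 0.05; the fit was tested on simulated data.

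After each line's mean was removed, Neo and MR 4-25 arrays of the same replicate number correlated at 0.293, 0.209 and 0.553 across these probes. Crossed arrays of slide 1 correlated more than same-numbered ones there, at 0.411 and 0.359. The blocked fit treated the numbers as pairs, which these slide 1 values do not bear out. Slides came from the array identifiers in the headers. RefSeq names (GRCm38.p6) were matched for 22973 probes by accession and 3105 by synonym, while 6644 kept a current symbol and 8452 matched none. Named genes were all aquaporin probes, the genes beside Aqp11, the 3 probes most alike, and, of each list, at most 2 past the test in each direction; genes said to be singled out after their values were seen, and the cell type markers given by value, are exceptions. Gene lists used the brightest probe of each gene. The members and lists were chosen with earlier results of these data known. Alternatives were normexp (offset 50), quantile or median scaling, the filter left out or asked of all 6 arrays, 1 probe (the brightest) for each gene, the value table, slide or replicate number as a block, an intensity trend with a robust fit, slide 1 alone, and leaving out each array. Exon and coding annotation was not used here. The number of arrays limits the precision.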

Additional observations from a re-analysis of the deposited data

How the results depend on the processing

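Of all probes, 401 passed the line test; 90 passed with normexp (65 higher and 25 lower, against 215 and 186, with the median difference of all probes at 0.35 against -0.02), 224 without a filter, 749 with a filter on all 6 arrays, 979 with an intensity trend and a robust fit, 172 on slide 1 alone and 1 with the replicate block. Leaving out 1 array gave 6 (without Neo 2) to 308 (without MR 4-25 3). The aquaporin count of 1 became 0 with normexp and with the replicate block, and was 0 to 1 when 1 array was left out. Aqp11 was -1.71 with normexp, -2.09 with the replicate block, -1.61 on slide 2 (no test) and -2.28 to -1.95 with 1 array left out. Genes of the family, solute and trafficking lists past the test, the cell type markers left out, went from 0 to 1 (Cat) with a filter on all 6 arrays, the brightest probe of each gene or an intensity trend. The slide test passed 0 aquaporin probes with normexp and 4 without a filter, against 2 as reported, where 13.6% of all probes passed. The share of all probes passing the slide test under the other settings was not counted.

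None of the other 9 probes passed the line test in the 146 values computed, with a lowest adjusted p of 0.347 in limma, and 11 values changed sign. With normexp, the line difference became 0.58 for Aqp9 A_51_P168133, 0.84 for Aqp5, 0.81 for Aqp7 and 0.29 for Aqp4 (the last below the median of all probes under that setting), and the slide difference 0.89, 1.09, 1.04 and 0.37 for the same probes and 0.093 for Aqp3. That of Aqp5 became 0.029 with quantile scaling and 0.07 on slide 1 alone. With 1 array left out, the range was -0.49 to 0.80 for Aqp3, -0.34 to 1.35 for Aqp8 and -0.43 to 0.26 for Aqp5. The blocked fit changed no other aquaporin call. The cause of these changes was not tested. Signal over background limits Aqp1, 2 of the 3 Aqp4 probes and Aqp7 A_52_P403405, which were well above background on fewer than 3 arrays, so no line difference was given for them. It also limits some differences that were given. The tested Aqp4 probe, Aqp5, Aqp7 A_51_P378063 and Aqp9 A_51_P168133 were not well above background on the dimmest array. Aqp9 A_52_P80440 was well above background on only 3 arrays.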
